A study of Danio rerio with 24 samples.

Results

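The sensors of the unfolded protein response (UPR) and the site proteases that cut the sensor Atf6 were described at the RNA level in zebrafish liver. The 7 genes were chosen by name (ern1, ern2, eif2ak3, atf6, xbp1, mbtps1 and mbtps2) among the 28210 genes of a table of read counts, and all 7 were present and among the 11801 genes that could be tested (counts above 100 in at least 3 fish). Livers came from 24 fish at 2 months post fertilisation, 6 of each of 4 genotypes. Z+ fish carried Tg(lfabp:eGFP-T2A-ZAAT), which encodes the Z-mutant of human antitrypsin (ZAAT), and A+ fish carried Tg(lfabp:eGFP-T2A-AAT), which encodes the wildtype protein (AAT). Z- and A- fish were the non-transgenic siblings of each line. The lfabp (fabp10a) promoter drives both transgenes in hepatocytes, so A+ shared eGFP and a human antitrypsin with Z+ and lacked the mutation. Transgenic parents were heterozygous and were outcrossed to wildtype TU fish. The number of insertions or founders behind each line is not given in the sources used here.

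When proteins fold badly in the endoplasmic reticulum (ER), the UPR slows their synthesis and raises the cell's capacity to fold or degrade them, and secretory cells such as hepatocytes depend on it. Ire1 (encoded by ern1 and ern2) splices the mRNA of the transcription factor Xbp1, and Perk (eif2ak3) phosphorylates the translation factor eIF2alpha, which slows protein synthesis and favours Atf4. Atf6 moves to the Golgi, where site-1 protease (mbtps1) and then site-2 protease (mbtps2) cut it and free its transcription factor domain. The same proteases cut the SREBP precursors that control sterol and lipid genes.

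The table counts reads per gene, so spliced and unspliced xbp1 mRNA were not told apart, and neither sensor phosphorylation nor cleavage of Atf6 was measured. Between 33898825 and 44715713 reads were counted per fish. Values are CPM, the counts of a gene relative to the total of its library, scaled by TMM, a single factor per library meant to offset differences in library composition. The entry of the transgene was between 903 and 6890 CPM in Z+, between 1550 and 4870 CPM in A+, and at most 7.34 CPM in the 12 non-transgenic fish. Hepatocyte marker genes (11 of 11 detected in each genotype) summed to between 41000 and 208000 CPM. Vitellogenin genes, which code for egg yolk precursors made by the liver of females, took 49.2% of all counts in Z- replicate 2 and 51.6% in Z+ replicate 5, and at most 5.19% elsewhere. A+ replicate 2 had 5230 CPM of summed ovary and egg markers (14 of 16 in the table). A+ replicates 1 and 3 had 361 and 191 CPM, and the highest sum outside A+ was 131 CPM. Summed intestine markers were highest in A- replicate 6 (22500 CPM), Z+ replicate 3 (8620 CPM), Z+ replicate 6 (7950 CPM) and A+ replicate 5 (5260 CPM). Summed exocrine pancreas markers (17 of 19 in the table) were highest in A+ replicate 1 (37000 CPM), A- replicate 6 (20100 CPM), Z+ replicate 5 (14400 CPM), Z- replicate 4 (14300 CPM) and Z+ replicate 3 (11500 CPM). These fish were kept. Calls that ended without the 2 high-vitellogenin fish or without the 4 fish highest in intestine markers are given with their values in those fits. The p-values measure the spread between these fish.

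The comparison of Z+ with A+ sets fish with the Z-mutant beside fish with the wildtype human protein. They are of separate lines, so the mutation and other differences between the lines, such as the insertion site, cannot be told apart. Here 3 of the 7 genes were called higher in Z+ and 0 lower: ern2, an Ire1 gene, atf6, and mbtps2, the gene of site-2 protease. Of all genes tested, 11.8% were called in either direction, 5.91% as higher and 5.92% as lower. The median log2 fold change was 0.47 over the 7 genes and -0.02 over all genes tested. The former is the value of xbp1 alone, which was not called and was -0.16 without Z+ replicate 5, so no shift of the set is read from it. Each call is an adjusted p under 0.05 in edgeR's quasi-likelihood test with Benjamini-Hochberg adjustment over all 11801 genes.

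Against the mean of both non-transgenic genotypes, Z+ was called higher in 2 of the 7 genes, atf6 and mbtps2, and lower in 0, beside 16.8% of all genes in either direction, 9.16% as higher and 7.66% as lower. Against Z- siblings alone 1 gene, mbtps2, was called higher and 0 lower, beside 12.2% of all genes in either direction, 7% as higher and 5.17% as lower. In A+ compared with A-, the step from non-transgenic to transgenic in the line with wildtype antitrypsin, 1 gene, ern2, was called lower and 0 higher, beside 10.1% in either direction, 5.27% as higher and 4.86% as lower. Between the non-transgenic genotypes Z- and A-, 0 of the 7 were called by edgeR, 0 had an unadjusted p under 0.05, and DESeq2 and limma voom also called 0. There 1.17% of all genes were called, 0.449% as higher and 0.72% as lower, and the 7 log2 fold changes lay between -0.42 (ern2) and 0.64 (atf6). These comparisons share samples, so their calls are not independent of each other.

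**Figure D1:**
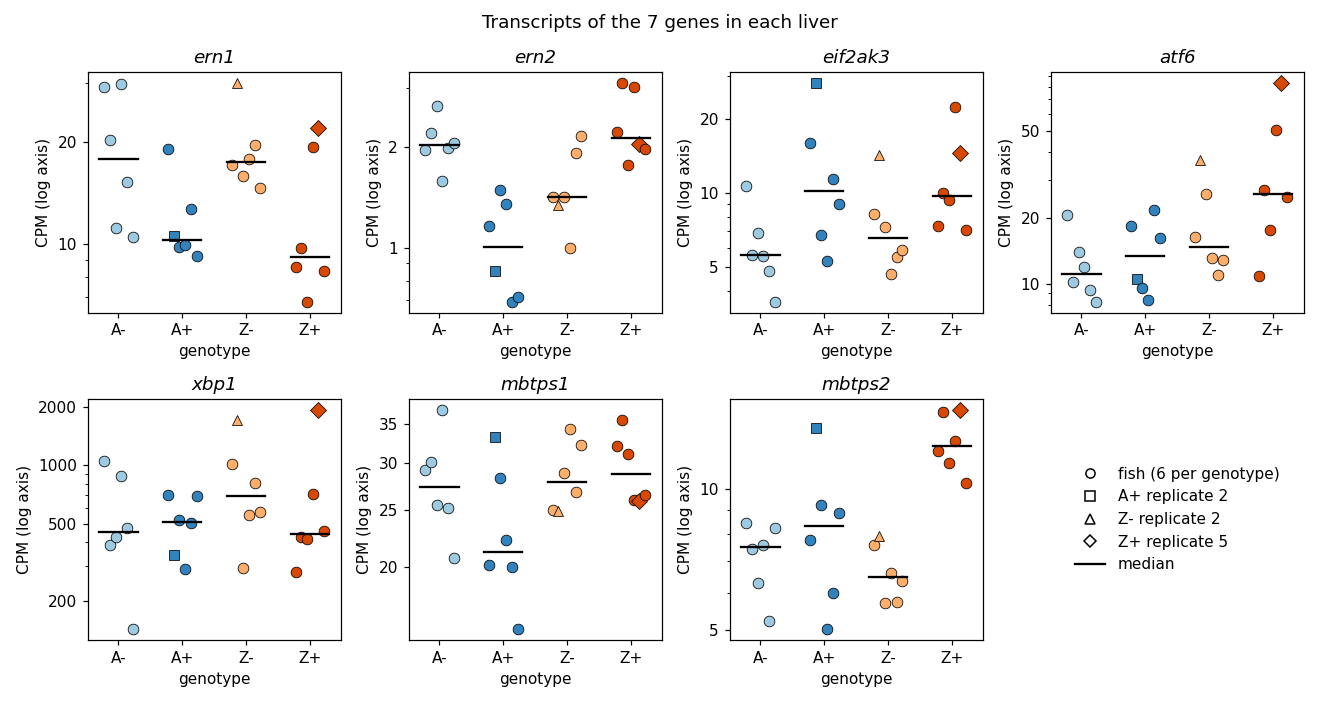
CPM of each of the 7 genes (y axis, log scale) in each liver, by genotype (x axis, 6 fish each). Horizontal lines are medians, and squares, triangles and diamonds mark A+ replicate 2, Z- replicate 2 and Z+ replicate 5. The Z+ fish lie above all A+ fish for ern2 and above all Z- and A- fish for mbtps2.

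The genes differed in how far they ranged between fish. xbp1 ranged 13.5-fold over the 24 livers, from 143 to 1930 CPM, and atf6 ranged 10.1-fold, from 8.25 to 83.4 CPM. mbtps1 ranged 2.35-fold, from 15.7 to 36.9 CPM. After genotype was accounted for, the biological coefficient of variation was 0.578 for xbp1, above that of 85.3% of genes tested, 0.239 for mbtps1, above 11.1%, and 0.258 for mbtps2, above 17.7%. CPM is not divided by transcript length, so levels are compared between fish and not between genes.

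ern1 encodes the Ire1 that is broadly expressed in vertebrates. Its lowest, median and highest CPM were 10.5, 17.8 and 29.8 in A-, 9.21, 10.3 and 19.1 in A+, 14.7, 17.5 and 30 in Z-, and 6.77, 9.16 and 22.1 in Z+. Most transgenic fish of either line were below most non-transgenic fish, and the groups overlapped. In Z+ 4 of 6 fish were below every Z- fish and every A- fish, while replicates 4 and 5 (19.4 and 22.1 CPM) were among the higher livers. The highest A+ fish, replicate 1, was the one highest in exocrine pancreas markers, and A- replicate 6, the next highest in them, was the lowest of A- for ern1. The log2 fold change of Z+ compared with non-transgenic fish was -0.63 ± 0.28 (SE; edgeR adjusted p = 0.13), that of Z+ with Z- was -0.62 ± 0.31 (adjusted p = 0.2) and that of A+ with A- was -0.7 ± 0.31 (adjusted p = 0.15). None of these passed the threshold. Between Z+ and A+ the difference was 0.07 ± 0.31 (adjusted p = 0.91). Without Z+ replicate 5 ern1 was called lower in Z+ than in non-transgenic fish (-0.86, adjusted p = 0.036), and it was also called so with vitellogenin as a covariate (-0.67, adjusted p = 0.01) and in limma voom with sample weights (-0.87, adjusted p = 0.0092). The last 2 fits also called it lower than in Z- (-0.61, adjusted p = 0.044, and -0.8, adjusted p = 0.028).

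ern2 encodes an Ire1 paralogue that in human and mouse is known from gut epithelium. In A+ the 6 livers had between 0.692 and 1.49 CPM (median 1.01), and in A- between 1.59 and 2.64 CPM (median 2.02). In Z- they had between 1 and 2.16 CPM (median 1.42), and in Z+ between 1.76 and 3.1 CPM (median 2.12). Every Z+ fish was above every A+ fish, an order seen in 2.25% of genes tested, and every A+ fish was below every A- fish, seen in 2.01%. Z+ overlapped both non-transgenic genotypes. These values rest on 23 to 128 counts per fish, and ern2 passed the filter through 5 fish (A- replicate 3, Z- replicate 6 and Z+ replicates 1, 2 and 4).

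The log2 fold change of ern2 was 1.17 ± 0.24 (SE; adjusted p = 0.0058) in Z+ compared with A+ and -0.98 ± 0.24 (adjusted p = 0.019) in A+ compared with A-. It was 0.39 ± 0.21 (adjusted p = 0.2) against non-transgenic fish and 0.6 ± 0.24 (adjusted p = 0.1) against Z-. The step from non-transgenic to transgenic differed between the lines by 1.59 ± 0.34 (interaction, adjusted p = 0.033), where 0.525% of all genes were called, 0.449% as higher and 0.0763% as lower. The calls in Z+ with A+ and in A+ with A- held without any 1 of the 24 fish. The former was 1.15 (adjusted p = 0.051) when only these genotypes were fitted, and the latter was -0.99 (adjusted p = 0.077) with library totals alone. The interaction lost its call in 10 of the 24 such fits (without A- replicates 3 or 5, A+ replicates 1 or 6, Z- replicates 1, 2 or 4, or Z+ replicates 1, 2 or 4), with log2 values between 1.45 and 1.71 over all 24. Summed goblet and secretory gut markers (5 of 8 in the table) had their highest median in Z+ (15.9 CPM, range 0.164 to 35.8), against 4.01 CPM in A+ (0.208 to 12.4), 3.21 CPM in A- (0.206 to 141) and 0.874 CPM in Z- (0.393 to 2.1). Within Z+ they were at 34.9, 35.8 and 31.4 CPM in replicates 3, 5 and 6, where ern2 was at 1.76, 2.04 and 1.96 CPM, and at 0.312, 0.279 and 0.164 CPM in replicates 1, 2 and 4, where ern2 was at 2.21, 3.1 and 3 CPM. A- replicate 6, with 141 CPM, had 2.05 CPM of ern2. The part of these cells in the differences of ern2 was not tested. The fit that follows left out fish by the separate intestine markers. It kept Z+ replicate 5, the Z+ fish highest in goblet and secretory gut markers. Without the 4 fish highest in intestine markers the difference of ern2 between Z+ and A+ was 1.2 (adjusted p = 0.014), and that between A+ and A- was -0.88 (adjusted p = 0.044).

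eif2ak3 encodes Perk, the sensor kinase of eIF2alpha. Its livers had 3.61 to 10.7 CPM in A- (median 5.58), 5.29 to 28.2 CPM in A+ (median 10.2), 4.68 to 14.3 CPM in Z- (median 6.56) and 7.08 to 22.4 CPM in Z+ (median 9.71). Both transgenic genotypes had the higher medians, and all groups overlapped. The top fish were A+ replicate 2, the fish highest in ovary and egg markers, and Z+ replicate 4. No comparison passed the threshold in edgeR, where the log2 fold change was 1.05 ± 0.38 in A+ with A- (adjusted p = 0.081), 0.78 ± 0.32 in Z+ with non-transgenic fish (adjusted p = 0.1), 0.63 ± 0.38 in Z+ with Z- (adjusted p = 0.29) and -0.12 ± 0.38 in Z+ with A+ (adjusted p = 0.87). Other fits called it: A+ with A- in DESeq2 (1.07, adjusted p = 0.04) and with vitellogenin as a covariate (1.12, adjusted p = 0.026), and Z+ with non-transgenic fish with that covariate (0.8, adjusted p = 0.043) and in limma voom (0.74, adjusted p = 0.038). Single fish also moved these values. Without A+ replicate 2 the A+ step was 0.64 (adjusted p = 0.26), and without Z- replicate 2 the comparison of Z+ with non-transgenic fish was called at 0.93 (adjusted p = 0.046). The A+ step was also called without A- replicate 1 (1.27, adjusted p = 0.048) and without A+ replicate 4, where the adjusted p was 0.047.

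atf6 encodes the sensor that is itself the substrate of both site proteases. The 6 Z+ livers had 10.8, 17.6, 24.9, 26.8, 50.8 and 83.4 CPM, of which the highest was replicate 5 and the next replicate 4. The ranges elsewhere were 8.25 to 20.6 CPM in A- (median 11), 8.43 to 21.8 CPM in A+ (median 13.3) and 10.9 to 36.8 CPM in Z- (median 14.7, highest in replicate 2). Of the Z+ fish 4 of 6 were above every A+ and every A- fish, 2 of 6 were above every Z- fish, and Z+ replicate 1 lay among the lower livers of the other groups.

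The log2 fold change of atf6 was 1.34 ± 0.41 (SE; adjusted p = 0.039) in Z+ compared with A+ and 1.21 ± 0.34 (adjusted p = 0.017) against non-transgenic fish. Against Z- it was 0.89 ± 0.41 (adjusted p = 0.15), which did not pass. A+ and A- differed by 0.19 ± 0.41 (adjusted p = 0.8). Without Z+ replicate 5, the fish with 51.6% of counts on vitellogenin, atf6 was at 0.88 against A+ (adjusted p = 0.11) and 0.76 against non-transgenic fish (adjusted p = 0.096), and neither was called. The call against A+ was lost in 9 of 24 fits that left out 1 fish (A- replicate 3, A+ replicates 2, 3, 4 or 6, Z- replicate 4, or Z+ replicates 2, 4 or 5), over which the value was 0.88 to 1.53. Without both high-vitellogenin fish, Z- replicate 2 and Z+ replicate 5, the difference against non-transgenic fish was 0.91 (adjusted p = 0.039), a call, and that against A+ was 0.88 (adjusted p = 0.088). In limma voom, where libraries that fit poorly weigh less, the value against A+ was also 0.88 (adjusted p = 0.11).

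xbp1 encodes the transcription factor whose mRNA Ire1 splices. Livers had 143 to 1050 CPM in A- (median 451), 293 to 703 CPM in A+ (median 511), 295 to 1720 CPM in Z- (median 693) and 281 to 1930 CPM in Z+ (median 442). All groups overlapped, and the highest livers of Z- and Z+ were the high-vitellogenin fish. No comparison was called. The log2 fold change was 0.47 ± 0.48 in Z+ with A+ (adjusted p = 0.57), 0.05 ± 0.42 against non-transgenic fish (adjusted p = 0.96), -0.24 ± 0.48 against Z- (adjusted p = 0.8) and -0.14 ± 0.48 in A+ with A- (adjusted p = 0.88). With standard errors this wide a moderate change in total xbp1 was not detectable. Without Z+ replicate 5 the value in Z+ with A+ was -0.16.

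mbtps1 encodes site-1 protease, a Golgi serine protease that makes the opening cut in Atf6 and SREBP precursors. Its medians were 27.4 CPM in A- (range 20.7 to 36.9), 21.2 CPM in A+ (15.7 to 33.2), 27.8 CPM in Z- (24.9 to 34.2) and 28.8 CPM in Z+ (25.8 to 35.6). Z+, Z- and A- shared nearly the same range, and 4 of 6 A+ fish were below every Z+ fish, while A+ replicate 2 was the highest of A+. The log2 fold change was 0.34 ± 0.17 in Z+ with A+ (edgeR adjusted p = 0.18; limma voom called it at 0.46, adjusted p = 0.042) and -0.26 ± 0.17 in A+ with A- (adjusted p = 0.32). It was 0.06 ± 0.14 in Z+ with non-transgenic fish (adjusted p = 0.82) and 0.04 ± 0.17 in Z+ with Z- (adjusted p = 0.9).

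mbtps2 encodes site-2 protease, the membrane metalloprotease that completes the release of Atf6 and of SREBPs. The 6 Z+ livers had 10.3 to 14.7 CPM (median 12.3). Those of Z- had 5.7 to 7.92 CPM (median 6.47), those of A- 5.23 to 8.45 CPM (median 7.51) and those of A+ 5.01 to 13.5 CPM (median 8.32). Every Z+ fish was above every Z- fish (an order seen in 4.81% of genes tested), above every A- fish (4.06%) and so above all 12 non-transgenic fish (2.34%). In A+ only replicate 2, the fish highest in ovary and egg markers, reached into the Z+ range. The other 5 A+ fish were below every Z+ fish.

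The log2 fold change of mbtps2 was 0.92 ± 0.19 (SE; adjusted p = 0.0029) in Z+ compared with Z-, 0.87 ± 0.16 (adjusted p = 0.00066) against non-transgenic fish and 0.58 ± 0.19 (adjusted p = 0.046) against A+. A+ and A- differed by 0.22 ± 0.19 (adjusted p = 0.48). The calls against Z- and non-transgenic fish held without any 1 of the 24 fish, at 0.87 to 0.98 and 0.82 to 0.92, and ended when libraries were scaled by their totals alone (0.87, adjusted p = 0.088, and 0.75, adjusted p = 0.055). The call against A+ lay at the threshold and was lost in 20 of the 24 such fits. It was kept without A- replicate 5, A+ replicate 2, Z- replicate 2 or Z+ replicate 6, and was 0.77 (adjusted p = 0.0052) without A+ replicate 2. It also ended without the 2 high-vitellogenin fish (0.53, adjusted p = 0.078) and without the 4 fish highest in intestine markers (0.59, adjusted p = 0.1). Over the 24 fits it was 0.47 to 0.77. The step from non-transgenic to transgenic was 0.7 ± 0.27 larger in the Z line (interaction, adjusted p = 0.13), and was called at 0.89 (adjusted p = 0.046) without A+ replicate 2. In whole livers, more RNA of a gene per cell and more cells that express it cannot be told apart.

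**Figure D2:**
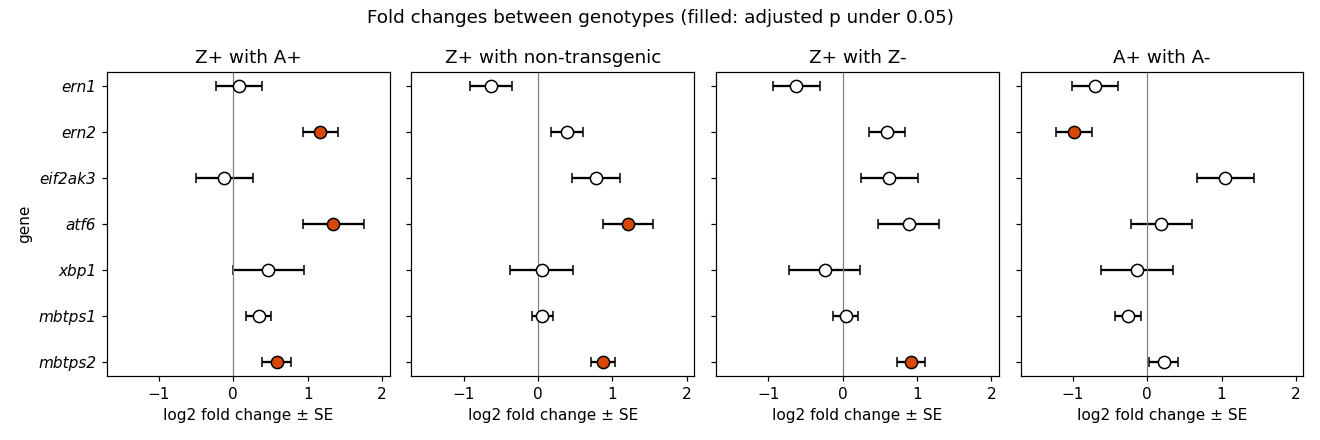
Log2 fold change ± SE (x axis) of each gene (y axis) in 4 comparisons, from 1 model over 24 fish. Filled points have an adjusted p under 0.05: ern2, atf6 and mbtps2 in Z+ with A+, atf6 and mbtps2 in Z+ with non-transgenic fish, mbtps2 in Z+ with Z-, and ern2, lower, in A+ with A-.

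Ratios of 2 genes within a liver do not depend on library scaling. The log2 ratio of mbtps2 to mbtps1 counts was between -1.45 and -0.81 in Z+ and between -2.37 and -1.65 in Z-, with no overlap. In A- it was between -2.28 and -1.32, where A- replicate 6, the fish highest in intestine markers, alone reached the Z+ range. In A+ it was between -2.15 and -0.82 (median -1.5), overlapping Z+ (median -1.32). The log2 ratio of atf6 to xbp1 was between -4.7 and -3.81 in Z+ (median -4.37), and its medians were -5.51 in Z-, -5.46 in A- and -5.19 in A+. The groups overlapped: Z- replicate 3 (-3.52) was above every Z+ fish, and A- replicate 6 (-4.11) and A+ replicate 5 (-4.53) lay in the Z+ range. In Z+ replicate 5 both genes were at their highest, and its ratio lay within that of the other Z+ fish. The log2 ratio of ern2 to ern1 had a median of -2.02 in Z+ and of -3.08, -3.66 and -3.54 in A-, A+ and Z-, and Z+ overlapped A+ and Z- through replicate 5 alone (-3.44) and A- more broadly.

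**Figure D3:**
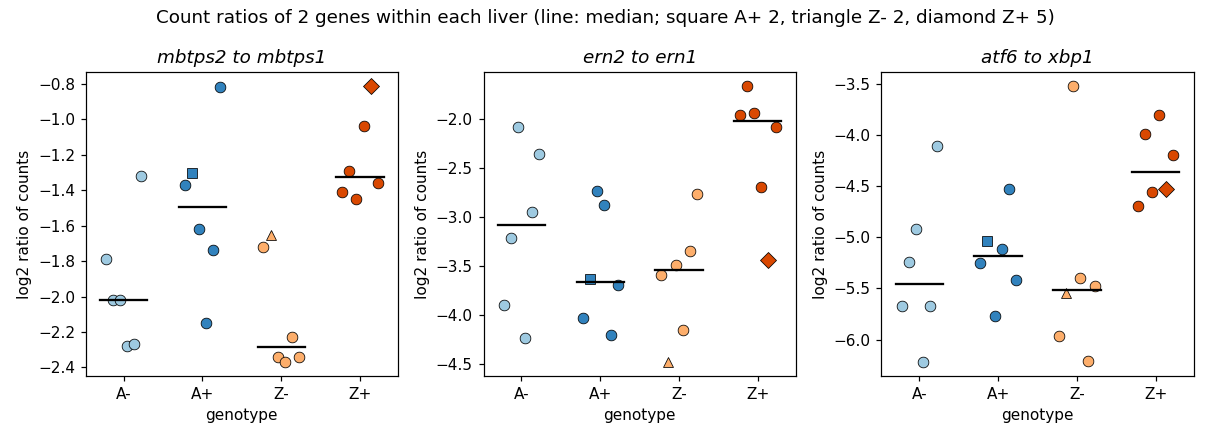
Log2 ratio of the counts of 2 genes in each liver (y axis) by genotype (x axis, 6 fish each), with medians as lines. For mbtps2 to mbtps1, all Z+ fish (-1.45 to -0.81) lie above all Z- fish (-2.37 to -1.65) and overlap A+.

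ern1, eif2ak3, atf6 and xbp1 varied together between fish of a genotype and with vitellogenin, and ern2 did not. mbtps2 also varied with vitellogenin. With genotype means taken off, 28 pairs were examined over 24 fish, by permutation within genotype. The pairs were of the 7 genes and the log2 of the summed CPM of the vitellogenin genes. In 12 pairs the adjusted p of Pearson's r was under 0.05. Vitellogenin and ern1 had r = 0.82 (permutation p = 4e-05, adjusted p = 0.00056; Spearman's rho 0.77, permutation p = 0.00053, adjusted p = 0.0049), and r = 0.76 without Z- replicate 2 and Z+ replicate 5. Vitellogenin and xbp1 had r = 0.69 (permutation p = 0.0014, adjusted p = 0.0064; rho 0.61, permutation p = 0.0039, adjusted p = 0.018), and r = 0.52 without these fish. Vitellogenin and atf6 had r = 0.64 (permutation p = 0.0028, adjusted p = 0.0086, with rho 0.56, permutation p = 0.0084, adjusted p = 0.029). It was r = 0.43 without them, so this relation leaned on them. Vitellogenin and mbtps2 had r = 0.45 (permutation p = 0.011, adjusted p = 0.029, with rho 0.52, permutation p = 0.013, adjusted p = 0.036), and r = 0.38 without these fish. The part of vitellogenin, and of the sex of the fish, which the labels do not give, in the genotype differences was not tested beyond the fits already given.

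Among the genes themselves, ern1 and xbp1 had r = 0.78 (permutation p = 1e-05, the smallest these permutations can give, adjusted p = 0.00028; rho 0.7, permutation p = 0.00048, adjusted p = 0.0049) and r = 0.69 without Z+ replicate 5 and A- replicate 6. atf6 and eif2ak3 had r = 0.65 (permutation p = 0.001, adjusted p = 0.0058; rho 0.74, permutation p = 0.00032, adjusted p = 0.0049) and r = 0.67 without Z+ replicates 1 and 5. eif2ak3 and mbtps2 had r = 0.56 (permutation p = 0.02, adjusted p = 0.047; rho 0.43, permutation p = 0.061, adjusted p = 0.13), which fell to r = 0.25 without A+ replicates 2 and 4 and so rested on these fish. ern2 was related to none of the others at this number of fish, with r between -0.16 (atf6) and 0.1 (mbtps1). The site proteases had r = 0.29 with each other (permutation p = 0.31, adjusted p = 0.55; rho 0.06, permutation p = 0.79, adjusted p = 0.85), and r = 0.07 without A+ replicates 2 and 4.

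**Figure D4:**
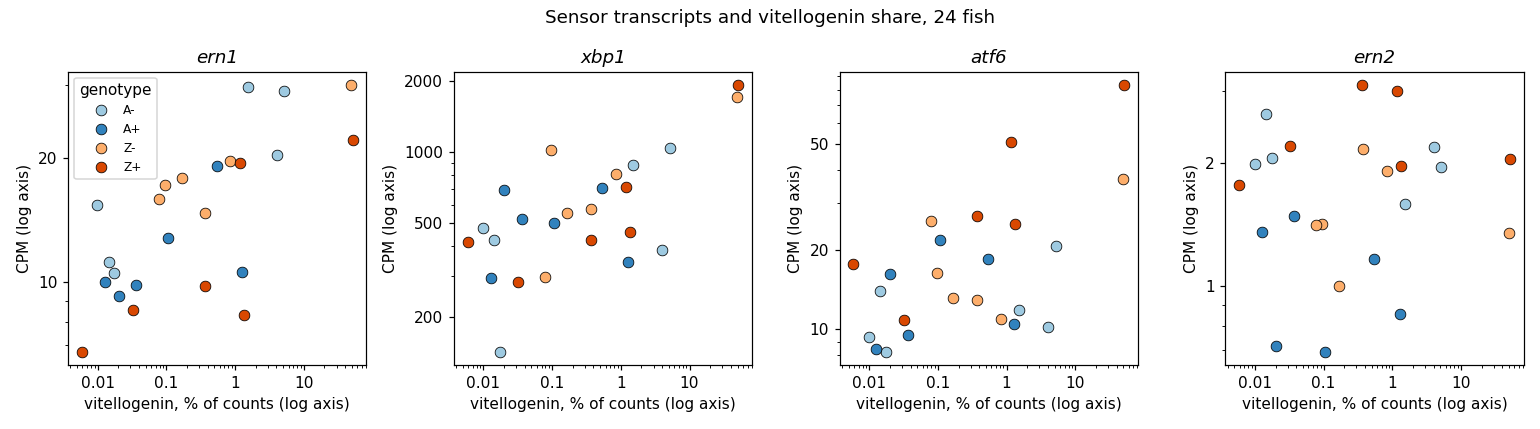
CPM of ern1, xbp1, atf6 and ern2 (y axes, log scale) against the share of all counts on vitellogenin genes (x axis, %, log scale), 1 point per fish, coloured by genotype. ern1 and xbp1 are higher in livers with more vitellogenin, and ern2 shows no such order.

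As a description, the genes closest to 6 of the 7 over the 24 fish by Pearson's r of log2 CPM, with no test, were stat6 for ern2 (r = 0.83), CABZ01095370.1 for eif2ak3 (0.91), saraf for atf6 (0.86), gspt1l for xbp1 (0.91), dcaf5 for mbtps1 (0.79) and e2f3 for mbtps2 (0.84). With genotype means taken off, atf6 was closest to sec63 (0.91), golga3 and canx (both 0.89), genes of the ER translocon, the Golgi and an ER lectin chaperone. xbp1 was closest to gspt1l (0.94), srprb (0.93), a subunit of the signal recognition particle receptor, and gars (0.91), glycyl-tRNA synthetase. For mbtps2 the closest were then cwf19l1 and snapc2 (both 0.84). Points share library and depth, and related fish.

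The order of genes in RefSeq (assembly GRCz12tu, not the build of the counts, matched by symbol for 65.5% of genes and for all 7 here) was used to look at neighbours. Of the 3 nearest genes of the table on each side of mbtps2, only phex passed the filter. The next 2 tested genes on the other side were klhl24b, of the Kelch-like family, and sh3kbp1, an adaptor of receptor endocytosis. klhl24b passed the count filter only through Z+ fish, so its place among the genes tested depended on its high level there. klhl24b was between 4.16 and 23.4 CPM in Z+ and at most 1.97 CPM in any other fish, with log2 fold changes of 3.8 ± 0.46 in Z+ with Z- (adjusted p = 6.6e-05) and 3.72 ± 0.46 with A+ (adjusted p = 4.3e-05). Among all genes tested, 2.25% had every Z+ fish above every A+ fish and 2.34% above every non-transgenic fish. sh3kbp1 was between 9.77 and 23.1 CPM in Z+, 8.36 and 17.5 CPM in A+, 4.44 and 8.92 CPM in Z-, and 4.7 and 7.81 CPM in A-. It rose in both lines, by a log2 value of 1.34 ± 0.23 in Z+ with Z- (adjusted p = 0.00073) and 1.04 ± 0.23 in A+ with A- (adjusted p = 0.011). Transgene and insertion site, or other linked alleles, cannot be told apart in this design. phex was lower in Z+ than in A+ (-2.08 ± 0.61, adjusted p = 0.032), a value of -0.36 without A+ replicate 2 and of -1.97 (adjusted p = 0.052) without the 2 high-vitellogenin fish. Next to atf6 the only tested gene among the 6 nearest was rxrgb, a retinoid X receptor, which was higher in Z+ than in A+ (1.53 ± 0.38, adjusted p = 0.015), Z- (1.41 ± 0.38, adjusted p = 0.017) and non-transgenic fish (1.24 ± 0.31, adjusted p = 0.0078), and whose calls against A+ and Z- were lost without Z+ replicate 2. Next to ern2, plk1, a mitotic kinase, was lower in Z+ than in A+ (-5.09 ± 1.29, adjusted p = 0.017), a call lost without A+ replicate 2.

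Lists of genes that act with or after the 7 were counted in the same fit. Over all genes tested, 11.8% were called in Z+ with A+, 16.8% with non-transgenic fish, 12.2% with Z- and 10.1% in A+ with A-. For the interaction the share was 0.525%. Of 17 ATF6 targets, mainly ER chaperones and folding enzymes with some genes of ER degradation, known mostly from mammals, 0 were higher and 1 lower in Z+ compared with A+: pdia6, a protein disulphide isomerase, at 23.6 to 42.2 CPM in Z+ and 35.4 to 133 CPM in A+ (log2 fold change -1.22 ± 0.3, adjusted p = 0.016, and -1.17, adjusted p = 0.056, without the 4 fish highest in intestine markers). Against Z- and against non-transgenic fish 0 of 17 were called by edgeR, with 1 at an unadjusted p under 0.05 in each, and limma voom called 1 lower against Z-. The list's median log2 fold change was -0.2 in Z+ with A+, -0.37 in Z+ with Z- and 0.5 in A+ with A-, beside -0.02, 0.03 and 0 over all genes. hspa5, the ER chaperone BiP, had medians of 284 CPM in A-, 497 CPM in A+, 346 CPM in Z- and 676 CPM in Z+, with its highest value, 1820 CPM, in Z- replicate 2, and was not called in any comparison. In A+ with A- edgeR called 1 of 17 higher, pdia4, also a disulphide isomerase (1.64 ± 0.44, adjusted p = 0.023), a call lost without A- replicate 5 and without the 4 fish (1.46, adjusted p = 0.07). DESeq2 and limma voom each called 2 higher there, pdia4 and hsp90b1. In edgeR hsp90b1 was at 1.56 ± 0.52 (adjusted p = 0.057).

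Of 25 tested XBP1 targets, genes of ER import, export and degradation, 0 were called in Z+ with A+ (0 also at an unadjusted p under 0.05, by DESeq2 and by limma voom) and 1 was higher in Z+ with Z-. This was dnajb9a, an ER co-chaperone of BiP, which was at 2.56 to 7.65 CPM in Z+, 1.92 to 11.5 CPM in A+, 0.942 to 4.33 CPM in Z- and 0.877 to 2.01 CPM in A-. It rose with either transgene: 1.71 ± 0.41 in Z+ with Z- (adjusted p = 0.0098) and 2.2 ± 0.42 in A+ with A- (adjusted p = 0.0053). Its calls held without any 1 fish. The paralogue dnajb9b was not called, at 0.09 ± 0.34 in Z+ with Z- (adjusted p = 0.9) and 0.64 ± 0.34 in A+ with A- (adjusted p = 0.24). dnajb9a passed the count filter through the transgenic fish, so its place among the genes tested depended on its higher level there. Against non-transgenic fish 1 of 25 was higher, again dnajb9a (1.87 ± 0.34, adjusted p = 0.00055), and 1 lower, sec24d, a COPII coat gene (-0.54 ± 0.18, adjusted p = 0.048), whose call was lost in 16 of 24 fits without 1 fish, without the 2 high-vitellogenin fish (-0.49, adjusted p = 0.07) and without the 4 fish (-0.47, adjusted p = 0.16).

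In the Perk and Atf4 branch the median log2 fold change in Z+ with A+ was 0.08, beside -0.02 over all genes. Of its 16 tested genes 4 were called there, 3 higher and 1 lower, beside 5.91% and 5.92% of all genes. The higher ones were ddit3 (0.99 ± 0.3, adjusted p = 0.038), the transcription factor Chop, trib3 (0.75 ± 0.19, adjusted p = 0.019), a pseudokinase induced by Atf4, and nck1a (0.98 ± 0.3, adjusted p = 0.041), an adaptor. The lower one was eif2s1a (-0.55 ± 0.16, adjusted p = 0.03), which encodes eIF2alpha. The paralogues eif2s1b (-0.09 ± 0.21, adjusted p = 0.81) and nck1b (0.06 ± 0.15, adjusted p = 0.82) were not called there. With 1 fish left out, ddit3 lost its call in 10 of 24 fits, nck1a in 11, eif2s1a in 3 and trib3 in 1, and ddit3 also lost it without the 2 high-vitellogenin fish (0.87, adjusted p = 0.051). Without the 4 fish highest in intestine markers these calls were lost at 0.89 for ddit3 (adjusted p = 0.1), 0.85 for nck1a (adjusted p = 0.11), -0.48 for eif2s1a (adjusted p = 0.13) and 0.47 for trib3 (adjusted p = 0.16), of which trib3 moved the most. chac1, a glutathione-degrading enzyme induced by Atf4, was at 81.7 to 242 CPM in Z+, 44.1 to 90.8 CPM in Z-, 37.8 to 93.8 CPM in A- and 55.1 to 248 CPM in A+. It was called higher against Z- (1.43 ± 0.33, adjusted p = 0.0075) and against non-transgenic fish (1.56 ± 0.27, adjusted p = 0.00044), calls that held without any 1 fish. Against non-transgenic fish edgeR and DESeq2 called no other gene of the list higher, and limma voom called 4 higher and 2 lower. eif2s1a was lower against Z- (-0.5 ± 0.16, adjusted p = 0.043) and non-transgenic fish (-0.46 ± 0.14, adjusted p = 0.025), calls that were lost in 9 and 4 of the 24 fits and without the 4 fish (-0.42 in both, adjusted p = 0.2 and 0.12). eif2s1b was not called against Z- (0.05, adjusted p = 0.92) or non-transgenic fish (0.12, adjusted p = 0.71). In A+ with A- edgeR called 0 of the 16, with 3 at an unadjusted p under 0.05, while DESeq2 called 1 higher and limma voom 1 lower.

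Of 9 tested partners of Ire1 and of xbp1 splicing, 2 were higher in each of the comparisons of Z+. In Z+ with A+ 2 were lower, against non-transgenic fish 1 and against Z- 0. Of all genes 5.91%, 9.16% and 7% were higher in these comparisons. The list's median log2 fold change was 0.4, 0.1 and -0.06 in them, beside -0.02, 0.03 and 0.03 over all genes. map3k5, the stress kinase Ask1, was at 15.7 to 37.6 CPM in Z+ and 4.6 to 8.52 CPM in A+, without overlap (an order seen in 2.25% of genes tested), and at 8.57 to 18.7 CPM in Z- and 10.5 to 23 CPM in A-. Its log2 fold change was 1.75 ± 0.24 in Z+ with A+ (adjusted p = 0.00016), 0.94 ± 0.23 in Z+ with Z- (adjusted p = 0.012) and -1.05 ± 0.24 in A+ with A- (adjusted p = 0.013), and the steps of the lines differed by 1.99 ± 0.33 (interaction, adjusted p = 0.012). The same signs were found for ern2. traf2b, an adaptor that binds Ire1, was at 6.13 to 7.49 CPM in Z+ and at most 5.82 CPM in the other 3 genotypes. Every Z+ fish was thus above every A+ fish, an order seen in 2.25% of genes tested, and above every non-transgenic fish, seen in 2.34%. traf2b was called higher against Z- (0.76 ± 0.16, adjusted p = 0.0032), non-transgenic fish (0.71 ± 0.13, adjusted p = 0.00079) and A+ (0.52 ± 0.16, adjusted p = 0.036, lost in 9 of 24 fits without 1 fish and, at 0.45 with adjusted p = 0.13, without the 4 fish). With library totals alone each of these calls was lost (0.7, adjusted p = 0.12, 0.6, adjusted p = 0.091, and 0.35, adjusted p = 0.41). mapk8a, a Jun kinase, was lower in Z+ than in A+ (-0.63 ± 0.19, adjusted p = 0.04), a call lost in 7 of 24 such fits and without the 4 fish (-0.61, adjusted p = 0.087). mapk8a was also called lower against non-transgenic fish (-0.52). That call was lost in 13 of 24 such fits and without the 4 fish (-0.49, adjusted p = 0.11). pdia6 is also in this list.

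In the list of site protease substrates and their escort, 3 of 11 tested genes were called higher in Z+ with A+ and 0 lower. Of all genes 5.91% were called higher there, and the median log2 fold change was 0.44 over the list and -0.02 over all genes. The 3 higher genes were atf6 itself, gnptab, whose product tags lysosomal enzymes (0.73 ± 0.14, adjusted p = 0.0034), and creb3l3l, a transcription factor of the hepatic CREBH family (1.05 ± 0.2, adjusted p = 0.0035). gnptab was at 14.3 to 23.5 CPM in Z+, 8.71 to 13.2 CPM in A+, 12 to 19.2 CPM in Z- and 17.5 to 20.9 CPM in A-, so that A+ was lowest and overlapped Z- (A+ with A-, -0.85 ± 0.14, adjusted p = 0.002). Against Z-, creb3l2, a related factor, was higher (1.57 ± 0.4, adjusted p = 0.014), as was creb3l3l (0.74 ± 0.2, adjusted p = 0.019, a call lost without Z+ replicate 3 and, at 0.56 with adjusted p = 0.094, without the 4 fish). insig1, which holds SREBPs in the ER, was lower (-1.35 ± 0.41, adjusted p = 0.033), a call lost in 7 of 24 fits without 1 fish. insig1 was at 158 to 753 CPM in Z+ (median 321) and 203 to 734 CPM in A+ (median 484), which overlapped. It was at 358 to 1380 CPM in Z- (median 1010) and 302 to 1320 CPM in A- (median 841). It was not called in Z+ with A+ (-0.31), in A+ with A- or for the interaction (-0.57). Against non-transgenic fish creb3l2 (1.22 ± 0.33, adjusted p = 0.013), atf6 and creb3l3l (0.6 ± 0.17, adjusted p = 0.017) were higher and insig1 was lower (-1.22 ± 0.37, adjusted p = 0.025), calls that ended without Z+ replicate 2 for creb3l2, without Z+ replicate 3 or the 4 fish (0.5, adjusted p = 0.071) for creb3l3l and without Z+ replicates 1 or 3 for insig1. In A+ with A- gnptab and insig2, the other Insig gene of the list (-0.63, adjusted p = 0.022, lost without A- replicates 3 or 5), were lower. The steps of the lines differed for gnptab (1.04 ± 0.2, adjusted p = 0.015) and creb3l3l (1.32 ± 0.28, adjusted p = 0.031, lost in 11 of 24 fits without 1 fish and, at 1 with adjusted p = 0.069, without the 4 fish). With library totals alone both interactions were lost (0.9, adjusted p = 0.22, and 1.25, adjusted p = 0.15). So were the calls of both against A+ (0.52, adjusted p = 0.21, and 0.91, adjusted p = 0.064). With no filter on counts the interactions were 0.96 (adjusted p = 0.065) and 1.19 (adjusted p = 0.067). srebf1, srebf2 and scap were not called by edgeR in any comparison, while limma voom called scap against non-transgenic fish. They had medians of 33.1, 29.9 and 10.1 CPM in Z+ and of 36.5, 32 and 12.4 CPM in Z-.

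The lists of ATF6 and XBP1 targets were also counted between the non-transgenic genotypes. Between Z- and A- edgeR, DESeq2 and limma voom called 0 of the 17 ATF6 targets and 0 of the 25 XBP1 targets, while 5 and 7 of them had an unadjusted p under 0.05. The median log2 fold change was 0.7 for ATF6 targets, positive in 16 of 17 genes, and 0.42 for XBP1 targets, beside -0.01 over all genes. For the interaction 0 of 17 ATF6 targets were called by edgeR (4 at an unadjusted p under 0.05, 1 lower by DESeq2, 0 by limma voom), with a median of -0.94. The genes of a list share fish and vary together, so these counts are a description.

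**Figure D5:**
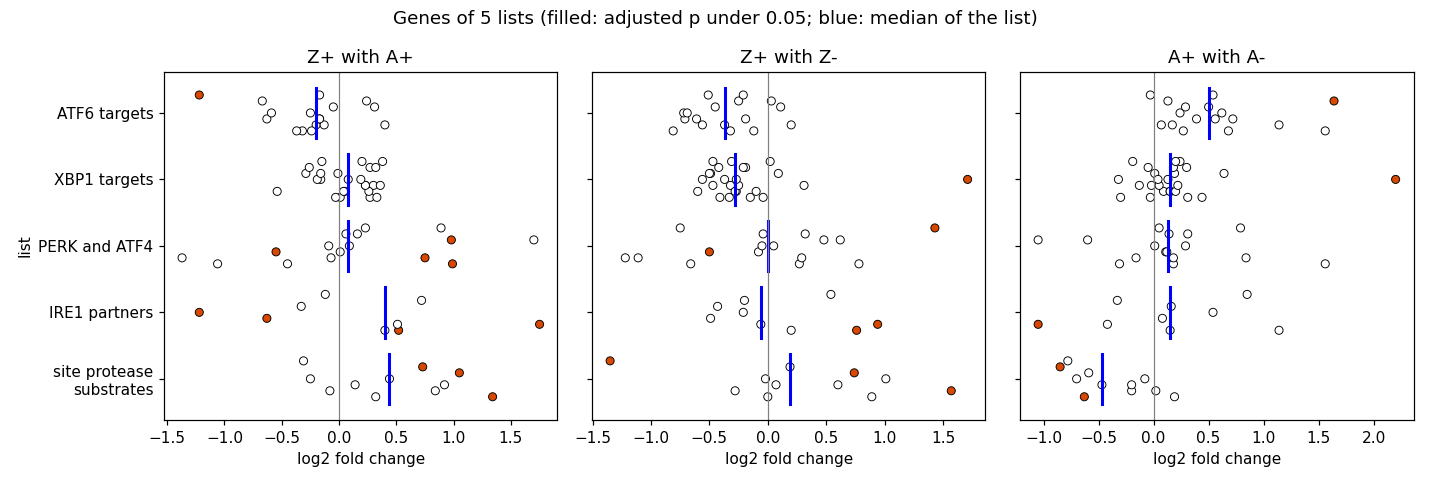
Log2 fold change (x axis) of each tested gene of 5 lists (y axis) in Z+ with A+, Z+ with Z- and A+ with A-. Filled points have an adjusted p under 0.05 and blue bars are list medians, which for ATF6 targets are -0.2, -0.37 and 0.5.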

How the data were processed

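Liver RNA of 24 fish was sequenced from polyA libraries (75 bp paired-end reads, 2 sequencing runs). The authors aligned reads with STAR in RNAsik to GRCz11 with the AAT transgene added and counted them with featureCounts. The deposited values are raw counts per gene name, without normalization. The strand setting of the counting is not given in the sources used here, so reads of a gene and of an antisense partner cannot be told apart. All 24 columns were matched to fish by their labels. Which fish was on which run, and which fish the study set aside, is not in the labels, so all 24 were kept and run was not modelled.

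The 11801 genes past the count filter (over 100 counts in 3 or more fish) were fitted with edgeR 4.0.16 in R 4.3.3: TMM scaling, 1 quasi-likelihood model of 4 genotype means, two-sided tests, Benjamini-Hochberg adjusted p under 0.05 over all genes tested. The interaction is Z+ less Z-, less A+ less A-. Each SE is the fold change divided by the square root of F. Log2 CPM had a prior count of 1. Totals of 33898825 to 44715713 counts put 3 counts at 0.0492 to 0.149 CPM, a limit that covers counting error only. Of the 60 pairs of fish within a genotype, 0 were identical. Relations between genes were tested with 100000 permutations within genotype.

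Alternatives were the DESeq2 1.42.0 Wald test, filterByExpr or no filter, library totals alone or the size factors of DESeq2, a replicate block, a vitellogenin covariate, limma 3.58.1 voom with sample weights, only the genotypes compared, and leaving out each fish. Fits without the 2 high-vitellogenin fish and without the 4 fish highest in intestine markers were chosen after seeing the data. The named genes are the 7, up to 3 genes per list and comparison by smallest adjusted p among those called, the 3 genes closest to each of the 7 (those of ern1 are not reported here), and the 3 nearest genes on each side of those called in a comparison of Z+. The next tested genes beside mbtps2, the examples hspa5, srebf1, srebf2 and scap, and the ratios shown were chosen after their values were seen. The members and lists were chosen with earlier results of these data known. The eIF2alpha kinases other than Perk (2 of 3 in the table) gave 1 call, eif2ak2 in Z+ with A+ (log2 fold change 0.63, edgeR, lost in 21 of 24 fits without 1 fish and without the 2 high-vitellogenin fish). Of the steps, only the edgeR fit of Z+ with A+ was run on simulated counts, with planted log2 changes of 2 in either direction. Smaller changes, the interaction and the permutations were not simulated. Protein, promoter and transcript sequences were not used here.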

Additional observations from a re-analysis of the deposited data

Results flagged for a closer look

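In each genotype the highest and lowest fish were compared with the rest of their group for each of the 7 genes, by Dixon's test at its 95% level. Of 28 such groups 4 had a fish far from the others. The test was run on CPM and not on log2 CPM. Its rate of about 1 in 20 holds for independent groups with a normal spread. That was not shown for CPM, and Z- replicate 2 was flagged for more than 1 gene, so no excess over chance is read from the count. ern1 was at 19.1 CPM in A+ replicate 1, against 12.7 CPM in the next A+ fish, and this liver also had the highest exocrine pancreas markers (37000 CPM); their part in the value was not tested. ern1 was at 30 CPM in Z- replicate 2, against 19.6 CPM in the next Z- fish, and eif2ak3 was at 14.3 CPM in the same fish, against 8.25 CPM. xbp1 was at 1930 CPM in Z+ replicate 5, against 713 CPM in the next Z+ fish. Z- replicate 2 and Z+ replicate 5 are the fish with 49.2% and 51.6% of counts on vitellogenin.

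The step from non-transgenic to transgenic fish differed between the lines for ern2, by a log2 value of 1.59 (edgeR interaction, adjusted p = 0.033, between 0.021 and 0.082 without each of the 24 fish in turn). In the A line ern2 was lower in all 6 A+ fish than in any A- fish, and in the Z line 3 of 6 Z+ fish were above every Z- fish.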

How the results depend on the processing

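The values reported for the 7 genes were recomputed under 11 alternatives and without each fish, which gave 1184 recomputed values. Of these 1072 kept direction and side of the threshold, 60 lost a call, 15 gained one and 37 changed sign. Each change of sign was in a value that was not called. Most values were not called to begin with, so the 1072 do not measure how firm the calls were. With 1 fish left out and under the other alternatives, calls were lost in 20 and 5 fits for mbtps2 against A+. They were lost in 9 and 7 for atf6 against A+, and in 10 and 3 for the ern2 interaction. The number of the 7 genes called in Z+ with A+ (3) was 1 with library totals alone, 0 with only the genotypes compared, 3 with limma voom (mbtps1 in place of atf6) and 1 without the 2 high-vitellogenin fish, and 1 to 3 with 1 fish left out. In Z+ with non-transgenic fish (2) it was 1 with library totals, 4 with the vitellogenin covariate and 4 with limma voom (ern1, lower, and eif2ak3 beside atf6 and mbtps2), and 2 to 3 with 1 fish left out. In Z+ with Z- (1) it was 0 with library totals, 2 with the covariate and 2 with voom. In A+ with A- (1) it was 2 with DESeq2, 0 with library totals, 2 with the covariate, 0 with only the genotypes compared, where ern2 was not among the genes tested, and 1 to 2 with 1 fish left out. For the interaction (1) it was 0 with library totals, 0 with no filter and 2 with voom, and 0 to 2 with 1 fish left out. For Z- with A- it was 0 throughout. The causes were not tested. Library totals alone moved the median of all genes in Z+ with A+ from -0.02 to -0.21, and the calls over all genes from 698 higher and 699 lower to 174 and 735. The split was 1081 and 904 against 429 and 630 in Z+ with non-transgenic fish, 826 and 610 against 222 and 267 in Z+ with Z-, 622 and 574 against 353 and 191 in A+ with A-, 53 and 85 against 25 and 64 in Z- with A-, and 53 and 9 against 1 and 0 for the interaction. With library totals mbtps2 lost its calls (0.28 against A+, adjusted p = 0.58; 0.75 against non-transgenic fish, 0.055; 0.87 against Z-, 0.088), as did atf6 against A+ (1.08, 0.065) and ern2 in A+ with A- (-0.99, 0.077), which kept its call against A+ (1.03, 0.049).

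The calls over all genes ranged over the alternatives from 328 to 2305 in Z+ with A+ (1397), 1059 to 3423 in Z+ with non-transgenic fish (1985), 489 to 3064 in Z+ with Z- (1436), 89 to 660 in Z- with A- (138), 149 to 2182 in A+ with A- (1196) and 1 to 943 for the interaction (62). With 1 fish left out they were 561 to 1621, 1264 to 2732, 871 to 2188, 74 to 233, 500 to 1500 and 30 to 285. The lowest of the first 3 were without Z+ replicate 2.

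Fish with the same replicate number did not deviate together (13 of 36 pairs with r over 0.1, from -0.45 to 0.77, and 7 closest to their own number), so the numbers were not taken as pairing. A replicate block gave 2 calls in Z+ with A+, 1 in Z+ with non-transgenic fish and 0 for the interaction. Under the block atf6 was no longer called against A+ (1.28, adjusted p = 0.091) or non-transgenic fish (1.12, 0.057), nor was the ern2 interaction (1.59, 0.076).

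Values that changed sign in Z+ with A+ were ern1 (-0.15 with library totals, -0.26 with the covariate, -0.18 with voom and without the 2 high-vitellogenin fish, and -0.18 to 0.25 with 1 fish left out), eif2ak3 (0.05 with the block, 0.21 with voom, 0.04 without the 4 fish highest in intestine markers, -0.44 to 0.28 with 1 fish left out) and xbp1 (-0.14 with the covariate, -0.07 with voom, -0.16 without the 2 fish, -0.16 to 0.63 with 1 left out). Against non-transgenic fish they were xbp1 (-0.11 with library totals, -0.01 with no filter, -0.02 with the block, -0.12 with the covariate, -0.24 with voom, -0.4 without the 2 fish, -0.57 to 0.23 with 1 left out) and mbtps1 (-0.04 with library totals, -0.02 with no filter). Against Z- they were xbp1 (0.02 without the 4 fish, -0.86 to 0.12 with 1 left out) and mbtps1 (-0.04 with library totals, -0.06 with no filter, -0.03 with filterByExpr, -0.01 with voom, -0.01 to 0.1 with 1 fish left out). In A+ with A- they were atf6 (-0.05 without the 4 fish) and xbp1 (0.18 with the covariate, -0.3 to 0.14 with 1 fish left out), and for the interaction eif2ak3 (0.21 with voom).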
